A study of Mus musculus with 2 samples.

Results

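Plasmacytoid dendritic cells (pDCs) were a small population among the immune cells of 143B tumors grown in nude mice: 208 of 19826 cells carried their transcripts, 18 under control IgG and 190 under anti-CD3L1. A cell was a barcode with at least 500 unique molecular identifiers (UMIs), over 200 and under 6000 genes, and under 5% mitochondrial UMIs. It was taken as a pDC when it held at least 2 UMIs of Siglech and at least 1 UMI over Klk1, Cox6a2 and Ccr9, with S100a8 and S100a9 together under 2% of its UMIs and the C1q genes C1qa, C1qb and C1qc together under 0.1%. The members were thus selected on these measured values, and the levels of those genes are given as a description.

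The host mice were female nude mice, a strain without a thymus and hence with few T cells, which were 4 weeks old when the study began and carried tumors under the skin grown from 143B cells, a line from a human osteosarcoma. The control IgG mice received human IgG1 and the treated mice an antibody against CD3L1, both at 10 mg/kg every 3 days for 4 doses. For each group, 3 tumors were pooled, CD45-positive cells were taken with magnetic beads, and 1 droplet library was made, so that neither group has a biological replicate and no test between the groups was possible. All intervals below are 95% intervals that cover counting error only. The 2 libraries also differed in what else they held: 2792 of 8557 cells were not neutrophils (under 2% of UMIs from S100a8 and S100a9) under control IgG, and 10754 of 11269 in the anti-CD3L1 library. The cells of the libraries shared 26 barcode sequences, the pDCs of the libraries shared 0, and 3 pDCs carried the barcode of a cell in the other library.

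Plasmacytoid dendritic cells arise in the bone marrow under the control of the transcription factor Tcf4, circulate as round cells with a large endoplasmic reticulum, and sense viral and self nucleic acids through Toll-like receptors in their endosomes. Once triggered they can release very large amounts of type I interferon, while at rest they present antigen poorly. In tumors they are known both as potential interferon producers and as cells that can be quiet or tolerogenic.

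Control IgG pDCs held a median of 12903 UMIs (7070 to 18788) and 3457.5 genes, and anti-CD3L1 pDCs a median of 8139 UMIs (2879 to 22275) and 2906.5 genes. The other cells had medians of 5509 and 8273 UMIs, respectively. Summed over cells, control IgG pDCs gave 229890 UMIs and anti-CD3L1 pDCs 1724889 UMIs, so that 1 UMI is worth 4.35 and 0.580 CPM (UMIs of a gene per 1000000 UMIs of the set of cells). Where values are given as a pair without a label, control IgG comes first. The median mitochondrial share was 2.72% and 2.15% in pDCs, against 0.350% and 1.39% in the other cells.

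Siglech, an inhibitory sialic acid receptor that signals through an adaptor and is a standard surface marker of mouse pDCs, was at 1257 CPM in control IgG pDCs and at 1256 CPM in anti-CD3L1 pDCs, against 0.149 and 2.51 CPM in the other cells of each library. Ccr9, the chemokine receptor that guides pDCs and lymphocytes to the gut and thymus, was at 1366 and 2191 CPM. Cox6a2, a subunit of the mitochondrial cytochrome c oxidase otherwise known from muscle, was at 565 and 536 CPM. Siglech and Cox6a2 therefore had nearly the same level in both libraries, whereas Ccr9 was 1.60-fold higher (1.43 to 1.81) in the anti-CD3L1 library. Klk1, a serine protease of the kallikrein family, was lower there, at 70.1 CPM against 287 CPM, a ratio of 0.244 (0.180 to 0.335). It was found in 72.2% of the 18 and 26.8% of the 190 pDCs, and after each cell was thinned to 1000 UMIs in 33.3% and 6.32%. No NK cell of either library held a Klk1 UMI, at median depths of 11948 and 9840 UMIs. Ccr9 and Klk1 helped to choose these cells, and the control IgG values come from 18 pDCs, so both ratios are descriptions and were not tested. The sizes of both differences depended on the gate (other gates are described below). With a gate of 9 other genes the log2 ratio between libraries went from -2.03 to -0.48 for Klk1. For Ccr9 it went from 0.68 to 2.10, and to 0.94 with a gate of 5 other genes.

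Few members lay near the limits of the rule. In the control IgG library the lowest pDC held 4 Siglech UMIs and 3 UMIs of the other 3 genes, with medians of 16.5 and 29.5. In the anti-CD3L1 library the medians were 11 and 24.5 UMIs, and 11 pDCs stood at a limit, 8 with exactly 2 Siglech UMIs and 5 with exactly 1 UMI of the other 3 genes. Just inside, the 8 cells with 2 Siglech UMIs had Tcf4 at 1558 CPM and Spib at 481 CPM. Just outside, 13 cells with 1 Siglech UMI and at least 1 UMI of the other 3 genes had Tcf4 at 749 CPM and Spib at 72.8 CPM, and 12 cells with 2 or more Siglech UMIs but none of the other 3 genes had Tcf4 at 1429 CPM and Spib at 47.3 CPM. A further 15 cells failed the C1q limit alone, with Siglech at 756 CPM and C1qa at 2141 CPM, and 8 cells, with 1 more under control IgG, failed the mitochondrial limit alone. All of these except the cells over the mitochondrial limit were counted among the other cells.

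The label was checked against Spib, the given marker that the rule did not use. Spib, an Ets-family transcription factor needed for pDC function, was at 178 CPM in control IgG pDCs and at 489 CPM in anti-CD3L1 pDCs, against 0.358 and 2.21 CPM in the other cells. It was found in 61.1% and 88.4% of pDCs, but in 0.820% and 0.186% of NK cells, and after thinning to 1000 UMIs in 16.7% and 34.2% of pDCs. A separate gate on genes outside the rule (at least 3 of Spib, Bcl11a, Pacsin1, Ly6d and Klra17 with a UMI), added after the data were seen, took 17 control IgG and 182 anti-CD3L1 cells. Of these, 15 and 161 were the pDCs already described, and 88.2% (63.6 to 98.5) and 93.4% (88.8 to 96.5) held a Siglech UMI. A wider gate of 9 other genes (at least 4 of Tcf4, Spib, Runx2, Bcl11a, Pacsin1, Ly6d, Klra17, Bst2 and Irf8 with a UMI, and at least 2 UMIs of Bst2) took far more cells, 335 and 1112. It took 18 and 189 of the pDCs already described, but only 5.67% (3.45 to 8.72) and 19.2% (17.0 to 21.7) of its cells held a Siglech UMI. The spread of these values over cells is shown in the plot of CPM per cell.

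**Figure D1:**
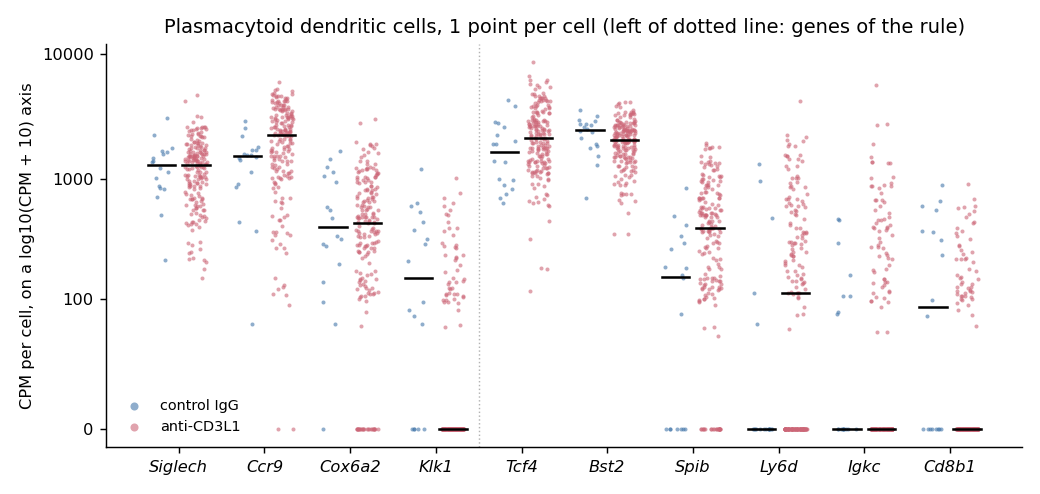
Expression of 10 genes in single pDCs (y axis: CPM per cell on a log10(CPM + 10) scale), with control IgG in blue (18 cells) and anti-CD3L1 in red (190 cells), 1 point per cell and a black line at the median. Siglech medians were alike (1281 and 1284 CPM), Spib was at 0 in a larger share of control IgG cells, and Ly6d, Igkc and Cd8b1 each had many cells at 0.

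The 300 bases around the start of 3 rule genes and Spib are shown because these genes chose and checked the members (Cox6a2 had no entry in the sequences used); they run from 250 bases before to 50 bases after the RefSeq gene start in GRCm38.p6, a build other than the one named in the submitters' processing notes. Capitals mark 3 short motifs searched on both strands: CACCTG (an E-box, the kind of site bound by Tcf4 and its relatives), GAGGAA (bound by Ets factors such as Spib) and TGTGGT (bound by Runx factors). Siglech lies at chr7:55767934-55768233 on the plus strand, Klk1 at chr7:44225110-44225409 on the plus strand, Ccr9 at chr9:123766961-123767260 on the plus strand and Spib at chr7:44532022-44532321 on the minus strand.
Siglech: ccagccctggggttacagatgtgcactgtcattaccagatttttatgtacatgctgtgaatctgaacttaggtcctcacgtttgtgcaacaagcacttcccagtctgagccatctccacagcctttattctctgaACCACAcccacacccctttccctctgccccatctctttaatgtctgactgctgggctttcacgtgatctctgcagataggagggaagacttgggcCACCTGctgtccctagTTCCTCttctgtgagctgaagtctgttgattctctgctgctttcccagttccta
Klk1: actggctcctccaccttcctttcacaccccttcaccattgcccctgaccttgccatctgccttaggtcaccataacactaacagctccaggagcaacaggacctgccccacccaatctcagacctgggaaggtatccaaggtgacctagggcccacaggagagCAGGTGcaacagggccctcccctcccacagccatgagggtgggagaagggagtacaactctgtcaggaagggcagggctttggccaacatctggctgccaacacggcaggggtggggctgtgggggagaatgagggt
Ccr9: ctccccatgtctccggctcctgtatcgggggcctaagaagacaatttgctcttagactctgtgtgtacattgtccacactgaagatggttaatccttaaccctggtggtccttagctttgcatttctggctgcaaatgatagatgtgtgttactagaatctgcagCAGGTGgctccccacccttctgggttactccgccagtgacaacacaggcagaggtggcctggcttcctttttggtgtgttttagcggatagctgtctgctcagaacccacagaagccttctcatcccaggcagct
Spib: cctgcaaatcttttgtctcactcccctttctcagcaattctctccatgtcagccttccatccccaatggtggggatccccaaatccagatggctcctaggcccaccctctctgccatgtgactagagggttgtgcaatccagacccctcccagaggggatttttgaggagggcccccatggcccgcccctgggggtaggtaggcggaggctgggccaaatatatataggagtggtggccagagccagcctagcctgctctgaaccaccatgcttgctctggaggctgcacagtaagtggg
The Siglech window held 1 match to each motif, the Klk1 and Ccr9 windows 1 CACCTG each on the minus strand (read as CAGGTG), and the Spib window none of these letters. Over 32851 promoters of the same length, 20.2% held CACCTG, 28.3% GAGGAA and 16.8% TGTGGT. Of the 20 genes highest in pDCs over the other cells, 14 had a promoter sequence, and 3, 4 and 4 of these held the respective motif. A match is a description of the letters and not a site.

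Plasmacytoid dendritic cells made up 0.210% (0.125 to 0.332) of all cells under control IgG and 1.69% (1.46 to 1.94) in the anti-CD3L1 library. Among cells that were not neutrophils, the shares were 0.645% (0.383 to 1.02) and 1.77% (1.53 to 2.03). The ratio between the libraries was 8.02 (4.94 to 13.8) over all cells and 2.74 (1.69 to 4.72) over cells that were not neutrophils, so its size depended on the denominator. Under the gate of 9 other genes the direction over cells that were not neutrophils turned, with shares of 12% and 10.3% and a log2 ratio of -0.21 (-0.39 to -0.03) in place of 1.45. Of the 335 and 1112 cells of that gate, only 5.67% and 19.2% held a Siglech UMI. Its shares therefore count mostly cells that the rule did not take, and they do not measure the share of pDCs. The gate of 5 other genes took 17 and 182 cells, where the rule took 18 and 190. With 1 pooled library in each group, no test of the difference in pDC share was possible. Conventional dendritic cells, gated on the same cells by their own genes, had higher shares in the anti-CD3L1 library as well: type 1 cells (Xcr1 and Clec9a) went from 0.287% to 1.29% and type 2 cells (Cd209a) from 0.466% to 2.17%. Of all dendritic cells gated, pDCs were 36.0% (22.9 to 50.8) of 50 under control IgG and 29.5% (26.0 to 33.2) of 644 in the anti-CD3L1 library, and these intervals overlapped. NK cells differed less, with shares of 4.37% and 5.01%.

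**Figure D2:**
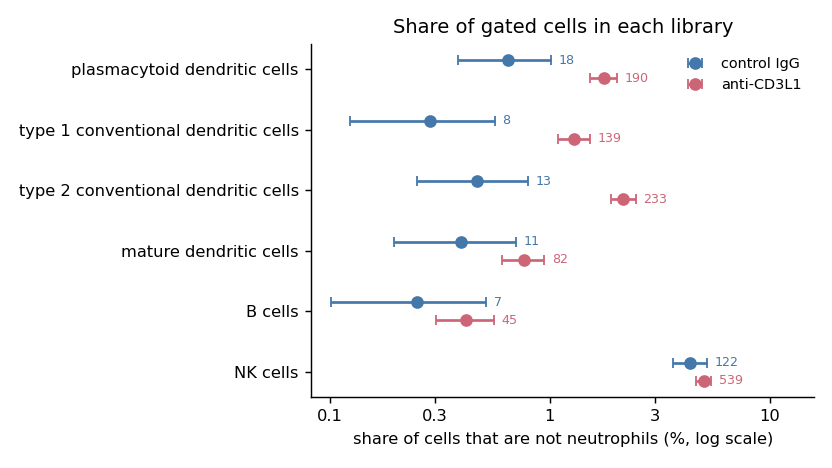
Share of each gated cell type among cells that were not neutrophils (x axis: percent, log scale), with exact binomial 95% intervals as bars and the number of cells beside each point. The pDC point moved from 0.645% in the control IgG library (blue) to 1.77% in the anti-CD3L1 library (red), and the points of the 3 other dendritic cell types were also higher there, with overlapping intervals for mature dendritic cells.

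The profile of the pDCs was read against all other cells of the same library by summed UMIs. In the anti-CD3L1 library, 465 of 10843 genes (4.29%) were at least 4-fold higher in pDCs and 1167 (10.8%) at least 4-fold lower, with a median log2 ratio over all these genes of 0.06. Of the 1167, 144 had 0 UMIs in pDCs and would be under 4-fold lower if 0 is taken as 3 UMIs over the group, the floor used below. In the control IgG library, where the pDC profile was shallower, 218 of 4648 genes (4.69%) were higher and 695 (15%) lower, with a median of 0.19.

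Genes known to mark pDCs were high as a group. Of 36 such genes outside the rule, 29 passed the filter on low counts in the anti-CD3L1 library, and 25 of these 29 were at least 4-fold higher in pDCs against the background of 4.29%, none was 4-fold lower, and their median log2 ratio was 3.36. The filter counted UMIs of both sets together. Genes rare elsewhere, such as Spib (844 UMIs in pDCs and 213 in the other cells), thus passed through their pDC UMIs. The count is a description and not a test. Bst2, the interferon-inducible antigen recognized by pDC antibodies, ranged over cells from 694 to 3572 CPM with a median of 2472 CPM under control IgG, and from 351 to 4163 CPM with a median of 2057 CPM in the anti-CD3L1 library. Its summed level of 1949 CPM in the anti-CD3L1 library was 4.53-fold (4.37 to 4.69) that of the other cells. Under the gate of 9 other genes, which itself uses Bst2, the log2 ratio of Bst2 went from 2.18 to 0.67, under 4-fold. Ly6d, a surface protein of lymphoid progenitors and of the lymphoid branch of pDCs, was at 165 and 315 CPM, 108-fold (93.0 to 125) above the other cells in the anti-CD3L1 library. Irf7, the factor that drives interferon genes, was the exception among the known pDC genes, at 257 CPM in pDCs and 367 CPM in the other cells, where it is also interferon-inducible.

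Among transcription factors of the dendritic lineage, the factors that specify pDCs and those that specify conventional dendritic cells moved apart. Tcf4, the E protein that sets and keeps pDC fate, ranged from 636 to 4271 CPM per cell with a median of 1646 CPM under control IgG, and from 117 to 8641 CPM with a median of 2131 CPM in the anti-CD3L1 library. Every pDC of both libraries held a Tcf4 UMI, against 45.1% and 36.7% of NK cells. Summed, Tcf4 was 15.9-fold (15.3 to 16.4) higher than in the other cells. Bcl11a, which acts upstream of Tcf4, was at 222 and 384 CPM and 43.9-fold higher in the anti-CD3L1 library. Runx2, needed for pDCs to leave the marrow, was at 813 and 633 CPM and 5.15-fold higher. Irf8, shared with type 1 conventional dendritic cells, was at 957 and 1653 CPM and 4.45-fold higher. Against them, Id2, an inhibitor of E proteins that conventional dendritic cells need, was at 56.5 and 85.8 CPM in pDCs and 0.195-fold (0.164 to 0.229) of the other cells in the anti-CD3L1 library, and Batf3, the factor of type 1 conventional dendritic cells, had 0 and 4 UMIs. Of the 19 factors listed, 6 were at least 4-fold higher (also Spib and Ikzf1) and 4 at least 4-fold lower (also Cebpb), against 4.29% and 10.8% of all genes, with a median log2 ratio of -0.52.

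Ranked without a list, the genes highest over the other cells in the anti-CD3L1 library after Siglech were Grm8 (a glutamate receptor) at 248-fold, Spib, Cox6a2, Cacna1e (a voltage-gated calcium channel subunit) at 213-fold, Pacsin1 at 177-fold, Ccr9 and Ly6d. The next were Smim5 at 99.6-fold, Dlg2 at 79.0-fold, Spns3 at 75.9-fold, Tmem108 at 72.3-fold and Arhgap32 at 64.1-fold. The last of the 20 were Upb1 at 60.1-fold, Gria3 at 57.5-fold, Cmah at 53.9-fold, Mctp2 at 52.7-fold, Bcl11a, Kynu at 40.5-fold and Lrp8 at 38.9-fold. Several of these, such as Grm8, Cacna1e, Gria3 and Dlg2, are best known from neurons. In the control IgG library Grm8 was at 361 CPM against 1.22 CPM in the other cells, and Cacna1e at 348 CPM against 1.27 CPM, so both were also pDC genes there. In all, 208 genes were at least 4-fold higher with at least 100 CPM and a UMI in at least 25% of pDCs. The genes furthest below the other cells were led by Mmp12, a matrix protease, which was at 1.74 CPM in pDCs and 138 CPM in the other cells, and the chemokines Ccl8 at 5.80 and 403 CPM, Pf4 at 2.90 and 133 CPM and Ccl7 at 7.54 and 184 CPM followed, with Trem2 at 5.22 and 194 CPM, Cd63 at 31.9 and 613 CPM and Spp1 at 0.0421-fold of its level in the other cells. C1qa, C1qb and C1qc were also among these 10, which the rule fixed.

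The nearest cell types were compared in the anti-CD3L1 library, which held 139 type 1 and 233 type 2 conventional dendritic cells, 82 mature dendritic cells (Ccr7 and Fscn1), 45 B cells and 539 NK cells. The genes used to gate each type were no finding in it. Against type 1 conventional dendritic cells, 825 of 9644 genes (8.55%) were at least 4-fold higher in pDCs and 513 (5.32%) at least 4-fold lower. The highest were Igkc, the immunoglobulin kappa constant gene, at 211 CPM against 0 UMIs (at least 83.5-fold higher), and Mzb1, an endoplasmic reticulum protein of antibody-making cells, at 125 CPM against 0 UMIs (at least 49.3-fold higher). Ly6d had 1 UMI in type 1 conventional dendritic cells, a ratio of 717 (128 to 28391). The lowest were Sept3, with 0 UMIs in pDCs against 244 CPM (at least 62.9-fold lower), Ccser1, Xcr1, Timd4 and Zfp366, each with 1 or 2 UMIs in pDCs. Against type 2 conventional dendritic cells, 697 of 9786 genes (7.12%) were higher and 467 (4.77%) lower. Cox6a2 and Iglc3, the latter an immunoglobulin lambda constant gene, had 0 UMIs in type 2 cells (at least 251-fold and at least 47.6-fold higher in pDCs), and Ccl17, Timd4, Ifitm1, Mgl2 and Olfm1 were the lowest in pDCs. Ccl17, a chemokine that attracts T cells, had 1 UMI in pDCs against 140 CPM, and Ifitm1 24.3 CPM against 1142 CPM.

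Against mature dendritic cells, 1182 of 8744 genes (13.5%) were at least 4-fold higher in pDCs and 537 (6.14%) lower, and 13 of the 1182 would be under 4-fold with 0 UMIs taken at the floor. Cacna1e, Ly6d, Sla2, Mzb1 and Iglc3 had 0 UMIs in mature dendritic cells and were at least 76.1-fold, 54.5-fold, 37.1-fold, 21.5-fold and 17.5-fold higher in pDCs. Adgrg6, Psca, Nudt17, Tnfrsf4 and Adcy6 had 0 UMIs in pDCs and were at 337, 236, 156, 128 and 114 CPM in mature dendritic cells. Against B cells, 537 of 5663 genes (9.48%) were higher and 124 (2.19%) lower, at a depth of 201662 UMIs in B cells. Slco3a1, a transporter, and Gria3 had 0 UMIs in B cells and were at least 7.15-fold and 4.90-fold higher in pDCs, and Ppfia4, Paqr5 and Zc3h12b, also at 0 UMIs there, at least 3.95-fold, 3.53-fold and 3.45-fold. Of the 537 genes, 85 had 0 UMIs in B cells and would be under 4-fold higher with 0 taken at the floor. Cd79a and Ms4a1, genes of the B cell receptor complex and of CD20, were part of the B cell gate, and the lowest genes outside it were Scd1, Cxcr5 and S1pr1 with 1 UMI each in pDCs against 332, 258 and 243 CPM. Against NK cells, 812 of 10860 genes (7.48%) were higher and 934 (8.6%) lower, and 78 of the 934 would be under 4-fold with 0 UMIs taken at the floor. Mzb1 had 0 UMIs in NK cells (at least 111-fold higher in pDCs), and Gzmc, a granzyme, was at 1.74 CPM in pDCs against 420 CPM, with Ccl1, Gimap7, Prf1 and Klrc1 also lowest. The heat map of summed expression sets these types side by side.

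**Figure D3:**
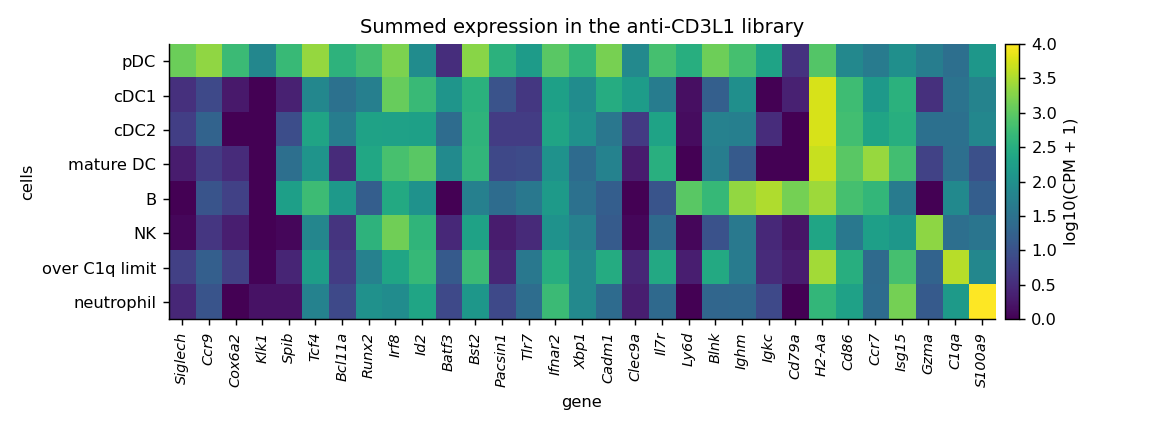
Summed expression of 31 genes in the anti-CD3L1 library (color: log10 of CPM + 1) for pDCs and 7 other sets of cells: conventional type 1 (cDC1), conventional type 2 (cDC2) and mature dendritic cells, B and NK cells, cells over the C1q limit, and neutrophils. The pDC row was high for Siglech, Ccr9, Tcf4 and Pacsin1, shared Irf8 and Cadm1 with cDC1 and Ly6d, Blnk, Ighm and Igkc with B cells, and was low for Id2, Batf3 and Cd79a.

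The pDCs carried part of the lymphoid program of B cells. Of 19 genes shared with B cells, 9 passed the filter, 5 of these 9 were at least 4-fold higher in pDCs than in the other cells against 4.29% of all genes, and none was 4-fold lower, with a median log2 ratio of 2.61. Here too the filter counted UMIs of both sets together, so the count is a description and not a test. Blnk, the adaptor below the B cell receptor, was at 1588 and 1314 CPM in control IgG and anti-CD3L1 pDCs, 9.14-fold (8.74 to 9.55) above the other cells in the latter. Ighm, the immunoglobulin M heavy chain gene, ranged from 119 to 1307 CPM per cell with a median of 461 CPM under control IgG, and from 69.4 to 1921 CPM with a median of 672 CPM in the anti-CD3L1 library. Every pDC held an Ighm UMI, against 39.3% and 31.4% of NK cells. Its summed level in B cells was 2261 CPM. Igkc was patchier: 44.4% and 37.4% of pDCs held a UMI (3.28% and 0.928% of NK cells), and in the anti-CD3L1 library the highest pDC reached 5648 CPM while the median was 0. Dntt, the enzyme that adds bases during receptor gene rearrangement, was found in 38.9% and 27.4% of pDCs and in no NK cell. The genes that define B cells were at or near 0: Cd79a had 0 and 5 UMIs, Pax5 2 and 6 UMIs and Ms4a1 1 and 5 UMIs. Rag2 and Igll1 also had 0 UMIs. Il7r, the receptor for a lymphoid growth factor, was at 718 and 655 CPM and 3.09-fold above the other cells in the anti-CD3L1 library. Kappa, lambda and heavy chain genes have close copies, so their split among copies is uncertain.

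T cell coreceptor genes were found, while T cell receptor genes were sparse. Cd4 was at 122 and 78.3 CPM in control IgG and anti-CD3L1 pDCs, 19.1-fold (15.6 to 23.3) above the other cells in the latter. Cd8b1 was at 261 and 81.2 CPM, against 0.0746 and 0.146 CPM in the other cells, and was found in 55.6% and 28.9% of pDCs, or 16.7% and 3.68% after thinning to 1000 UMIs. Cd8a had 16 and 69 UMIs. No NK cell of either library held a UMI of Cd4, Cd8a or Cd8b1. Cd3e and Cd3g had 0 UMIs in pDCs of both libraries, and Cd3d, Trac, Trbc1 and Trbc2 had 0 UMIs under control IgG and 2, 1, 20 and 14 UMIs under anti-CD3L1. The T cell list as a whole summed to 261 and 103 CPM in pDCs, and Cd8b1 was its most abundant gene.

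Nucleic acid sensing was represented by a few genes rather than by the whole list, which held cytosolic sensors beside endosomal receptors and their partners. Of 21 measured genes, 3 were at least 4-fold higher than in the other cells of the anti-CD3L1 library and 4 at least 4-fold lower (background 4.29% and 10.8%), with a median log2 ratio of -0.16. Tlr7, the receptor for single-stranded RNA, was at 157 and 158 CPM in control IgG and anti-CD3L1 pDCs, 4.97-fold (4.37 to 5.63) above the other cells in the latter. It was found in 66.7% and 59.5% of pDCs, and in 1.64% and 2.04% of NK cells. Slc15a4, an endosomal transporter needed for signaling by these receptors, was at 78.3 and 107 CPM and 4.41-fold higher. Pacsin1, an adaptor of membrane curvature that pDCs need for interferon release after Tlr9 stimulation, was at 344 and 372 CPM. Tlr9 itself, the receptor for unmethylated DNA, had 2 and 13 UMIs. Tlr8 had 0 UMIs and Tlr3, typical of type 1 conventional dendritic cells, 0 and 1 UMI. The cytosolic sensors Ifih1 and Ddx58, which were among the 4 lower genes, were at 0.124-fold (0.0936 to 0.160) and 0.118-fold (0.0567 to 0.218) of the other cells in the anti-CD3L1 library.

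Interferon transcripts were not detected beyond a few UMIs. All 14 Ifna genes measured had 0 UMIs in pDCs of both libraries, which allows up to 13 CPM for each under control IgG and 1.74 CPM in the anti-CD3L1 library, or up to 16.7% and 1.58% of pDCs with a UMI. These shares limit detection at this depth and not the share of pDCs that express the genes. Cell Ranger counts only reads that fit 1 gene, and the Ifna genes are near-identical copies, so reads they share were not counted. Ifnb1 had 0 and 1 UMI. The interferon lambda genes Ifnl2 and Ifnl3 had 1 and 0 UMIs under control IgG and 4 and 2 UMIs in the anti-CD3L1 library, where Ifnl2 had 0.0104 CPM in the other cells. The receptor chains were well covered: Ifnar1 was at 565 and 473 CPM in pDCs against 122 and 118 CPM in the other cells, just past 4-fold in the anti-CD3L1 library (interval 3.73 to 4.30), and Ifnar2 at 800 and 950 CPM and 3.23-fold above. Ifnlr1, the receptor for lambda interferons, had 0 UMIs.

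Interferon-stimulated genes were lower in pDCs than in the other cells, most of which were myeloid. Of 26 measured genes, none was at least 4-fold higher in the anti-CD3L1 library and 12 were at least 4-fold lower against 10.8% of all genes, with a median log2 ratio of -1.87 (0.0029 under the gate of 9 other genes). Isg15, a ubiquitin-like antiviral protein, was at 43.5 CPM in control IgG pDCs and at 97.4 CPM in anti-CD3L1 pDCs, against 645 and 630 CPM in the other cells. Rsad2, the antiviral protein viperin, was at 8.70 and 44.6 CPM, against 373 and 518 CPM. Of the list, 3 genes lay above the other cells, among them Ly6e at 1.16-fold. Ly6a, a surface protein known as Sca-1, was at 226 and 456 CPM and 2.12-fold above the other cells in the anti-CD3L1 library, and Stat2, a part of the interferon signaling complex, at 34.8 and 114 CPM and 2.05-fold above. Ifi27l2a was the most abundant of the list in pDCs, at 866 and 1049 CPM.

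**Figure D4:**
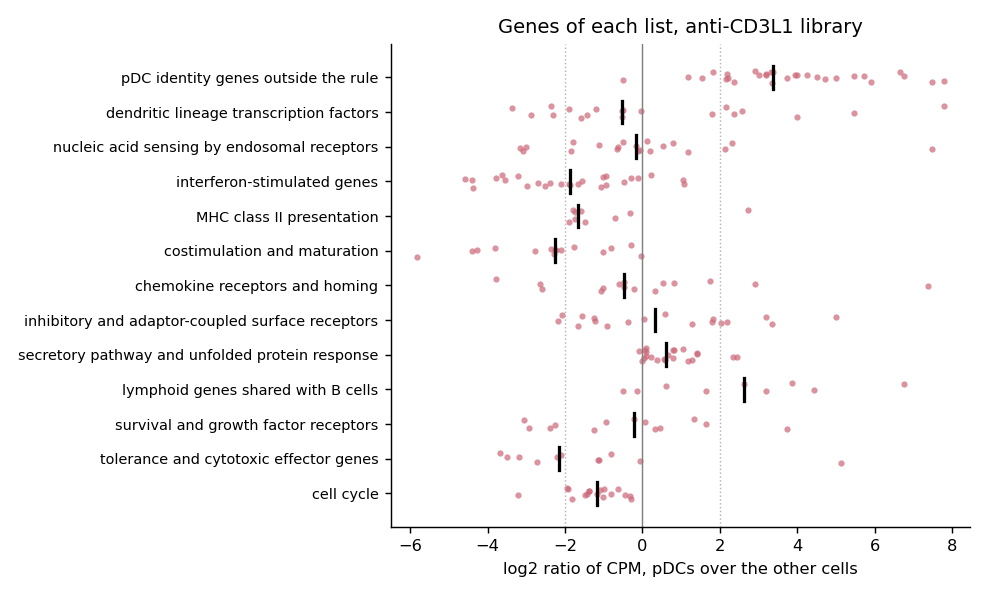
Log2 ratio of CPM in pDCs over the other cells of the anti-CD3L1 library (x axis), 1 point per gene that passed the filter, for 13 gene lists (y axis), with a black bar at each list's median and dotted lines at 4-fold. The medians ran from -2.26 for costimulation and maturation to 3.36 for pDC identity genes, and genes listed with a UMI count of 0 in pDCs are not drawn.

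Antigen presentation by MHC class II varied widely from pDC to pDC. Of 10 genes, 1 was at least 4-fold higher than in the other cells of the anti-CD3L1 library and 1 at least 4-fold lower (4.29% and 10.8% of all genes), with a median log2 ratio of -1.67 (-1.55 with the gene at 0 UMIs placed at its floor, and 0.11 under the gate of 9 other genes). H2-Aa, an alpha chain of the class II molecule, was at 1683 CPM in control IgG pDCs and 842 CPM in anti-CD3L1 pDCs, and Cd74, the invariant chain that guards the groove, at 3915 and 1892 CPM. In conventional dendritic cells of the anti-CD3L1 library, H2-Aa was at 5827 CPM (type 1) and 5823 CPM (type 2), so pDCs held less of it than both. H2-Oa, part of an inhibitor of peptide loading, was the gene that was higher, at 39.1 and 31.3 CPM and 6.65-fold (4.92 to 8.83) above the other cells. Its partner H2-Ob, the gene counted as lower, had 2 and 0 UMIs, and the 0 shows a level at least 2.85-fold lower than in the other cells. The sum of H2-Aa, H2-Ab1, H2-Eb1 and Cd74 in single pDCs ranged from 442 to 15528 CPM with a median of 7285 CPM under control IgG, and from 0 to 25470 CPM with a median of 1552 CPM in the anti-CD3L1 library, where 5 cells were at 0. The range of the 18 cells lay inside that of the 190, while the medians lay far apart. For comparison, NK cells had medians of 93.0 and 286 CPM and type 1 conventional dendritic cells 27445 and 25920 CPM.

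**Figure D5:**
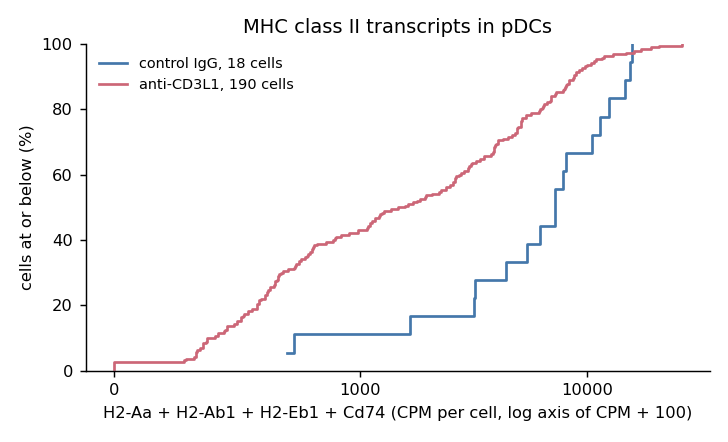
Cumulative share of pDCs (y axis, percent) with a summed level of H2-Aa, H2-Ab1, H2-Eb1 and Cd74 at or below the value on the x axis (CPM per cell, log scale of CPM + 100), for 18 control IgG cells (blue) and 190 anti-CD3L1 cells (red). The red curve lay to the left over most of the range, with medians of 1552 CPM against 7285 CPM, and reached higher at its end (25470 CPM against 15528 CPM).

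Costimulatory and maturation genes were low in the anti-CD3L1 library. Their sum there was 516 CPM in pDCs against 1775 CPM in the other cells, and under control IgG it was 1040 CPM against 1332 CPM. None of 15 genes was at least 4-fold higher than in the other cells of the anti-CD3L1 library and 10 were at least 4-fold lower (background 10.8%), with a median log2 ratio of -2.26 (0.60 under the gate of 9 other genes). Cd86, a ligand of CD28, was at 183 CPM in control IgG pDCs and 73.6 CPM in anti-CD3L1 pDCs, against 168 and 357 CPM in the other cells and 955 CPM in mature dendritic cells. Cd83, a surface protein of maturing dendritic cells, was at 204 and 94.5 CPM. Ccr7, the receptor that takes mature dendritic cells to lymph nodes, was at 226 and 44.6 CPM, against 2394 CPM in mature dendritic cells. Fscn1, Ccl22 and Il12b had 0 UMIs under control IgG and 2 each in the anti-CD3L1 library. Relb, a factor of the NF-kappaB family, was close to the other cells at 152 and 139 CPM, and it was the most abundant of the list in the anti-CD3L1 library.

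Surface receptors that couple to adaptors were mixed. Of 18 genes that passed the filter, 5 were at least 4-fold higher and 2 at least 4-fold lower in the anti-CD3L1 library (4.29% and 10.8% of all genes), with a median log2 ratio of 0.31. Lair1, an inhibitory collagen receptor, was at 296 and 391 CPM in the 2 libraries and 10.1-fold (9.32 to 11.0) above the other cells in the anti-CD3L1 library. Klra17, an Ly49-family receptor, was at 309 and 96.8 CPM and 31.7-fold (26.0 to 38.4) above. It was found in 83.3% and 38.4% of pDCs, but in 4.10% and 0.371% of NK cells. Lag3, an inhibitory receptor, was at 39.1 and 31.9 CPM, 9.07-fold above the other cells. Tyrobp, the adaptor that Siglech uses, was at 2127 and 2596 CPM and close to the other cells. Fcer1g, the Fc receptor gamma chain, was lower than in the other cells, at 426 and 593 CPM against 2443 and 1886 CPM.

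Among homing receptors, 2 of 15 genes that passed the filter were at least 4-fold higher in the anti-CD3L1 library (among them Ccr9, a gene of the rule) and 3 at least 4-fold lower (Ccr1, Cx3cr1 and S1pr1), against 4.29% and 10.8% of all genes, with a median log2 ratio of -0.47. Cxcr3, a receptor for interferon-induced chemokines, had 3 and 42 UMIs. Of 13 growth factor and survival genes, 1 was at least 4-fold higher and 4 at least 4-fold lower, against the same background, with a median of -0.22. The higher one was Flt3, the receptor for the growth factor of all dendritic cells, at 235 and 184 CPM and 13.3-fold (11.7 to 15.0) above the other cells. Il3ra, the chain used to sort human pDCs, was at 16.8 CPM in the anti-CD3L1 library and 16.2 CPM in the other cells.

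Few secretory genes passed the 4-fold limit. All 22 genes passed the filter in the anti-CD3L1 library, 2 were at least 4-fold higher and none 4-fold lower (4.29% and 10.8% of all genes), with a median log2 ratio of 0.62 against 0.06 for all genes. Xbp1, the factor that expands the endoplasmic reticulum in secreting cells, was at 374 and 432 CPM in the pDCs of the 2 libraries and 5.47-fold (5.07 to 5.90) above the other cells in the anti-CD3L1 library. Herpud1, which helps to clear misfolded proteins, was at 670 and 451 CPM and 5.09-fold above. Hspa5, the main chaperone of the endoplasmic reticulum and the most abundant of the list, was at 1675 and 1269 CPM, and in the anti-CD3L1 library its ratio to the 1291 CPM of the other cells was 0.983 (0.942 to 1.03), an interval that holds 1.

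Effector and tolerance genes were low in part. Of 12 such genes that passed the filter, 1 was at least 4-fold higher and 7 at least 4-fold lower in the anti-CD3L1 library (4.29% and 10.8% of all genes), with a median log2 ratio of -2.16. With Nt5e, at 0 UMIs, placed at its floor, 6 were lower and the median was -1.63. The higher one was Havcr1, which encodes the phosphatidylserine receptor Tim-1, at 109 and 101 CPM against 0.164 and 2.91 CPM in the other cells. It was found in 77.8% and 51.1% of pDCs, and in 0% and 0.186% of NK cells. Ido1, Gzmb and Tnfsf10, effectors described in pDCs, had 0 UMIs under control IgG and 2, 16 and 1 UMIs in the anti-CD3L1 library. Tgfb1 was the most abundant of the list and close to the other cells, at 178 and 335 CPM. Genes of transitional dendritic cells, which lie between pDCs and conventional dendritic cells, were not raised: none of 12 was at least 4-fold higher and 7 were 4-fold lower, with a median of -2.41, and Axl had 0 and 20 UMIs. Of 17 cell cycle genes none was at least 4-fold higher and 1 was at least 4-fold lower, a share under the background of 10.8%, with a median of -1.18. Mki67, a marker of cycling cells, had 1 and 28 UMIs.

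Mouse transcripts of CD3L1 and of its reported partner were sparse in pDCs. The paper describes its antibody as highly specific for the human protein, and binding to mouse CD3L1 was not measured here. Itpripl1, the mouse gene of CD3L1, had 3 UMIs under control IgG and 40 UMIs (23.2 CPM) in the anti-CD3L1 library, where the other cells were at 6.33 CPM, a ratio of 3.66 (2.59 to 5.05). Nrp2, the neuropilin gene, was at 183 CPM and 24.3 CPM, from 42 UMIs in each library, but in the control IgG library all 42 UMIs lay in 5.56% of the cells, that is in 1 of 18 pDCs. In the anti-CD3L1 library 7.37% of pDCs held a Nrp2 UMI. Nrp1 was at 21.8 and 31.3 CPM. Of 10 genes of this list that passed the filter, none was at least 4-fold higher and 3 were at least 4-fold lower (Nrp2, Plxna1 and Plxna4), against 4.29% and 10.8% of all genes, with a median of -0.88. Plxna4 had 0 UMIs, which shows only a level at least 2.17-fold lower.

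Markers of other cell types were measured in the same pDCs. Counting 14 defining markers of NK, B, T, conventional dendritic, neutrophil and macrophage cells, 7 of 18 and 65 of 190 pDCs held at least 2 UMIs over all of them. In the anti-CD3L1 library, 83 pDCs held a UMI of Clec9a, a receptor for dead cells known from type 1 conventional dendritic cells and from mouse pDCs, 31 of Cd209a and 27 of Csf1r. These were 43.7%, 16.3% and 14.2% of pDCs (median depth 8139 UMIs), against 0.186%, 0.742% and 11.5% of NK cells (median 9840 UMIs), so the share for Csf1r was near that of NK cells. Xcr1, the other marker of type 1 conventional dendritic cells, had 0 and 1 UMI, while Clec9a was at 21.8 and 74.2 CPM and Cadm1, an adhesion molecule of both cell types, at 1092 and 1492 CPM. The 7 genes of type 1 conventional dendritic cells summed to 2118 and 3364 CPM, led by Irf8 and with 3 of 7 at least 4-fold above the other cells and 2 below (4.29% and 10.8% of all genes). The 7 genes of type 2 conventional dendritic cells summed to 448 and 515 CPM, led by Sirpa, and the 6 genes of mature dendritic cells to 244 and 61.5 CPM, led by Ccr7. Macrophage markers summed to 396 and 785 CPM in pDCs against 3142 and 11497 CPM in the other cells, with Apoe the most abundant. Of these 8 genes 7 were at least 4-fold lower, but 3 of the 7 were C1qa, C1qb and C1qc, which the rule kept low. Monocyte markers summed to 2149 and 2124 CPM, nearly all from Plac8, which pDCs are known to express, and NK cell markers to 122 and 199 CPM, led by Klrk1. The 6 B cell markers summed to 73.9 and 65.5 CPM, led by Fcrla, the 5 mast cell and basophil markers were all at 0, and the 5 fibroblast markers had 1 and 3 UMIs in all.

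Neutrophil transcripts differed between the libraries in pDCs and in NK cells. The 7 neutrophil markers summed to 666 CPM in control IgG pDCs and 228 CPM in anti-CD3L1 pDCs, led by S100a9. S100a8 and S100a9 together ranged from 293 to 1034 CPM per cell with a median of 631 CPM in the control IgG library, whereas in the anti-CD3L1 library 158 of 190 pDCs were at 0. NK cells had medians of 572 CPM and 0. Summed over cells, S100a8 and S100a9 were at 635 CPM in pDCs and 800 CPM in NK cells under control IgG, but at 192 CPM in pDCs and 45.8 CPM in NK cells under anti-CD3L1, with 92.3 and 104 CPM in type 1 and type 2 conventional dendritic cells. The rule kept cells with 2% or more of these UMIs out.

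Between the libraries, summed lists and the most abundant genes were compared, since 18 pDCs do not carry single low genes. The MHC class II list was at 7769 CPM under control IgG and 4215 CPM under anti-CD3L1, a log2 ratio of -0.88 (-0.96 to -0.81). Costimulation and maturation genes were at 1040 and 516 CPM, a log2 ratio of -1.01 (-1.22 to -0.80). Both sums were thus lower in the anti-CD3L1 library, but under the gate of 9 other genes both were higher there, with log2 ratios of 1.2 and 0.42. Interferon-stimulated genes went the other way, at 2327 and 3398 CPM, a log2 ratio of 0.55 (0.42 to 0.68). With the gate of 5 other genes this was 0.11, with an interval that reached 0, and with the gate of 9 it was -0.13. The sum was also higher under anti-CD3L1 in NK cells (1212 and 1891 CPM), type 1 conventional dendritic cells (1056 and 3594 CPM) and type 2 cells (3755 and 4728 CPM). The pDC identity genes were at 16995 and 19743 CPM, a log2 ratio of 0.22 (0.17 to 0.26). Secretory genes were at 8413 and 7638 CPM, a log2 ratio of -0.14 (-0.21 to -0.07) that changed sign with the gates of 5 and 9 other genes (0.0227 and 0.30), and lymphoid genes were level at 3593 and 3597 CPM. Macrophage markers were higher in the pDCs of the anti-CD3L1 library, with a log2 ratio of 0.99 (0.68 to 1.31), and neutrophil and mature dendritic cell markers lower, with log2 ratios of -1.55 (-1.82 to -1.27) and -1.99 (-2.47 to -1.49). Their part in the differences of the other lists was not tested. In cells with fewer than 2 UMIs of the 14 markers (11 and 125 cells), the MHC class II log2 ratio was -1.42. Without replicates, a difference between treatments and a difference between 2 pools of tumors cannot be told apart.

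Among the abundant genes, the chaperones Hspa8 and Hsp90aa1 differed most. Hsp90aa1, the inducible cytosolic chaperone, was at 6825 CPM under control IgG and 3043 CPM in the anti-CD3L1 library, a ratio of 0.446 (0.421 to 0.472). Hspa8, a constitutive cytosolic chaperone, was at 5851 and 2551 CPM, a ratio of 0.436 (0.410 to 0.464), and Hsp90ab1 at 5068 and 3743 CPM, a ratio of 0.739 (0.694 to 0.787). Under the gate of 9 other genes the log2 ratio of Hsp90aa1 turned from -1.17 to 0.52 and that of Hspa8 went from -1.20 to -0.10. Summed per cell, the 3 genes ranged from 6170 to 37037 CPM with a median of 17262 CPM under control IgG and from 1609 to 40848 CPM with a median of 7713 CPM in the anti-CD3L1 library. The medians in NK cells were 12054 and 9672 CPM, lower under anti-CD3L1 by less, whereas those in type 1 conventional dendritic cells were 8872 and 11103 CPM, higher under anti-CD3L1, and those in type 2 cells 9360 and 8541 CPM. Among the other abundant genes, Malat1 was at 21319 and 15719 CPM (ratio 0.737), Tmsb4x at 8308 and 6383 CPM, H3f3b at 3989 and 3005 CPM and Actb at 3941 and 5171 CPM. Fth1, Ftl1, Tpt1 and Fau had ratios from 0.911 to 1.02.

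Variation among the 190 pDCs of the anti-CD3L1 library was measured after each was thinned to 1000 UMIs. Of 1933 genes with a mean of at least 0.1 UMI, the median ratio of variance to mean was 1.07, close to counting noise, and 42 genes were above 2. The 10 most variable were Ccl5 at 6.91, Cxcl2 at 6.76, S100a9 at 6.22, Lyz2 at 5.54, Apoe at 5.32, Jun at 4.35, Fos at 4.15, Hspa1b at 3.89, Hsp90aa1 at 3.57 and Ccl4 at 3.45. They fall into chemokines (Ccl5, Cxcl2 and Ccl4), transcripts of neutrophils and macrophages (S100a9, Lyz2 and Apoe), and immediate early and heat shock genes (Jun, Fos, Hspa1b and Hsp90aa1). Of the first and second sets, the 19 highest pDCs for each gene carried 97.3% of all Ccl5 UMIs, 87.1% of Cxcl2, 68.2% of Ccl4, 99.1% of S100a9, 89.1% of Lyz2 and 76.1% of Apoe. A UMI of Apoe was found in 76.8% of these pDCs and in 72.0% of NK cells, and after thinning in 19.5% and 17.1%, so this share was near that of cells that should lack the gene. For genes of pDC identity outside the rule, the 19 highest cells carried 22.4% of Tcf4, 17.7% of Bst2 and 33.3% of Spib UMIs. Igkc and Ly6d lay between, at 62.4% and 50.2%. Ly6d was found in 54.7% of these pDCs, and in 0.186% of NK cells.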

How the data were processed

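Single-cell RNA libraries were made by the authors with the 10x Genomics Chromium system and processed with Cell Ranger 7.1.0; the submitters' processing notes name GRCm39 and Seurat 5.1.0. The deposited matrices hold raw UMI counts per gene and barcode, unfiltered for cells: 1084690 barcodes with 74850604 UMIs (control IgG) and 1548857 with 108246719 UMIs (anti-CD3L1). This version of Cell Ranger counts intronic reads unless told otherwise. Whether this was changed is not stated in the sources read. A table of fold changes and p-values for macrophages, made by the authors, was not used.

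The quality limits follow the study, with at least 500 UMIs added. Members were found by the rule on raw counts; doublets were kept and no caller was run. UMIs were summed over members and over the other cells of a library, as CPM with exact Poisson intervals. Ratios had exact binomial intervals and shares Clopper-Pearson intervals. Genes needed 20 UMIs in both sets together and 5 expected in members, so genes found almost only in pDCs (Klk1, Cd8b1, Dntt, Iglc3) were described but not called against all other cells. Called meant at least 4-fold apart. Free RNA was read from barcodes of 20 to 100 UMIs. In the alternative that subtracted it, its share was set at 10% of UMIs and was not estimated from the data. The 7 neutrophil markers were at 69558 CPM in such barcodes of the control IgG library and at 666 CPM in its pDCs. Other types were gated by at least 2 UMIs of Xcr1 and Clec9a, of Cd209a, of Fscn1 with Ccr7, of Cd79a and other B cell genes, or of Ncr1 and Klrb1c. Lists and the members were chosen with earlier results of these data known. Some genes of the lists are counted but not reported here by name. Named genes were the rule genes, list genes, the 20 highest and 10 lowest over other cells, the 10 most abundant, the 5 highest and lowest over each type and the 10 most variable (at least 100 CPM on the higher side; mitochondrial, ribosomal and unnamed genes left out of ranks); other list genes were added as examples of their role after their values were seen. The rule for single genes between libraries was not applied, since 1 library held under 20 pDCs. Ratios between the libraries for genes of the rule are given as a description only. Mx1, Mx2, Sting1 and Rigi are not symbols of the files; Tmem173 and Ddx58 are.

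Alternatives changed the limits, the gate genes, doublets, scaling, the low-count filter, the set of other cells, free RNA and thinning; a gate of 5 genes was added after the data were seen. Promoters came from RefSeq (GRCm38.p6). Tools were pandas 2.3.3, scipy 1.17.1, numpy 2.4.6 and matplotlib 3.10.9 under Python 3.11.15, and the procedures were tested on simulated data.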

Additional observations from a re-analysis of the deposited data

Results flagged for a closer look

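For 3 gene lists, the sum in pDCs lay above the other cells of one library and below those of the other by more than its counting interval in both, and the difference between the libraries was not tested. Nucleic acid sensing genes had a log2 ratio of pDCs over the other cells of 0.39 under control IgG and -0.56 under anti-CD3L1. MHC class II genes had 1.55 and -1.57, and markers of mature dendritic cells 2.55 and -1.41. The other cells changed between the libraries too: their MHC class II sum was 2644 and 12559 CPM, their sensing genes 2162 and 4361 CPM, and their mature dendritic cell markers 41.5 and 163 CPM. The study target genes and neuropilin partners also lay on both sides, at 318 CPM (249 to 399) in pDCs against 305 CPM in the other cells under control IgG, where the interval holds the level of the other cells, and at 166 against 453 CPM under anti-CD3L1. Most of the control IgG sum was Nrp2, whose UMIs there all lay in the same pDC. The place of this list above the other cells therefore rested on that cell.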

How the results depend on the processing

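No paired analysis was possible because each group was 1 library and the labels give no replicate numbers. Leaving out a library leaves no comparison. Of the values recomputed under the alternatives, 109 of those that answer a comparison and 364 others counted as unchanged, while 24 and 9 moved and 6 and 5 reversed. A further 21 of the others fell back over the 4-fold threshold and 6 passed it. For ratios over the other cells, unchanged meant the same direction and side of the 4-fold threshold, whatever the size. Apart from the gate of 9 other genes, the log2 ratio of Cd8b1 ran from 6.39 to 9.97 and that of Clec9a from 2.41 to 4.30. Both counted as unchanged in all 13 settings.

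Most changes of direction came from a gate of 9 other genes (at least 4 of Tcf4, Spib, Runx2, Bcl11a, Pacsin1, Ly6d, Klra17, Bst2 and Irf8), which took 335 and 1112 cells, of which only 5.67% and 19.2% held a Siglech UMI. Under it the shares were 3.91% and 9.87% of all cells and 12% and 10.3% of cells that were not neutrophils (log2 ratio -0.21, reversed), 153 genes were higher and 375 lower than in other cells, and the log2 ratios between libraries reversed for MHC class II (1.2), costimulation (0.42), interferon-stimulated (-0.13) and secretory genes (0.30) and for Hsp90aa1 (0.52). Over the other cells, H2-Aa (0.12) and the medians of MHC class II (0.11), costimulation (0.60) and interferon-stimulated genes (0.0029) reversed too. Bst2 (0.67), Cadm1 (0.69) and Ifnar1 (0.66) were among the genes that fell under 4-fold.

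With the gate of 5 genes, interferon-stimulated genes moved to 0.11 and secretory genes to 0.0227, a change of sign. With at least 1 Siglech UMI, MHC class II was -0.78 and costimulation -0.79. With free RNA subtracted at an assumed 10% of UMIs they were -1.24 and -1.27. With possible doublets left out they were -1.42 and -1.42, interferon-stimulated genes 0.37, and the anti-CD3L1 shares 1.11% and 1.16%. MHC class II was -1.09 by mean CPM over cells and -0.64 without the S100a8, S100a9 and C1q limits. With barcodes thinned to 1000 UMIs before the gate, fewer cells reached it: 0.0717% and 0.529% of all cells, and 0.221% and 0.554% of those that were not neutrophils. Without the low-count filter, 1668 genes were higher. Thinned to 500 UMIs, 4 of the 10 most variable genes remained. Apart from the 9-gene gate, Tcf4 stayed between 3.92 and 4.07, the median of pDC identity genes between 3.24 and 4.12, and Ifnar1 between 1.91 and 2.09, on either side of 4-fold. The range was wider for Ly6d (5.95 to 7.36), Pacsin1 (6.42 to 7.87) and Spib (6.78 to 8.13). It was also wider for Igkc (3.66 to 5.65), Clec9a (2.41 to 4.30), Cd8b1 (6.39 to 9.97) and Isg15 (-3.77 to -2.38). The causes were not tested.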
